A study of Mus musculus with 9 samples.

Results

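The 10 genes described here were low in mouse olfactory sensory neurons sorted for the odorant receptor Olfr1507 and higher in neurons sorted for Olfr73 or Olfr160. Most were near absent in Olfr1507, and Slc23a2 was reduced without being near absent. They are Papss2, Acpp, Lpp, Svopl, Tspan12, Atp2b4, Tmem87a, Slc23a2, Rasgrp4 and the noncoding 5730403I07Rik, out of 55291 rows of the deposited tables. They were chosen by their expected counts and TPM, which were low in the 3 Olfr1507 libraries and higher in the other 6, a rule without a numeric threshold. So the gap between Olfr1507 and the other groups is given below as a description, without a test. All 10 passed the filter on low counts, which kept 16399 genes. The rule did not ask for a difference between Olfr73 and Olfr160, and that comparison is the one that was tested for them. The rule did use the values of both groups, and the genes were chosen with earlier results of these data known.

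Polyadenylated RNA was sequenced from mature neurons sorted out of the main olfactory epithelium of mice, in 3 libraries for each of 3 genotypes. The Olfr73 group carried Olfr73-IRES-GFP, the Olfr1507 group Olfr1507-IRES-GFP and the Olfr160 group Olfr160-IRES-mCherry, alleles in which a fluorescent protein is made from the same transcript as the receptor, and dissociated cells were sorted for bright fluorescence and low DAPI. No treatment, time or age is given in the labels. Nothing in them ties a library to an animal, so a p-value here speaks only of the spread among libraries, which may be technical. The design text speaks of duplicates where each group holds 3.

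Each olfactory sensory neuron transcribes 1 odorant receptor gene, and the choice is tied to the zone of the epithelium in which the neuron sits. Olfr73 and Olfr160 are receptors of the dorsal zone and Olfr1507 is a receptor of the ventral zone. Dorsal and ventral neurons also differ in enzymes and adhesion molecules, of which the quinone reductase Nqo1 and the acyl-CoA synthetase Acsm4 are known dorsal markers. The 10 genes have unrelated roles: sulfate activation (Papss2), phosphate release outside the cell (Acpp), adhesion and membrane organisation (Lpp, Tspan12), transport of ions and vitamins (Svopl, Atp2b4, Slc23a2), the Golgi apparatus (Tmem87a) and Ras signalling (Rasgrp4).

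Libraries held 17212807 to 36230606 expected counts. The tagged receptor made up 85.1% to 94.7% of all Olfr counts in the Olfr1507 libraries, 22.8% to 32.8% in Olfr73 and 2.08% to 10.1% in Olfr160, so in both the Olfr73 and the Olfr160 libraries most Olfr counts came from other receptors. Markers of sustentacular and gland cells, the non-neuronal cells that surround the neurons (22 genes), summed to 3.19% to 6.64% of the counts in the Olfr160 libraries, 0.498% to 0.971% in Olfr73 and 0.0418% to 0.0788% in Olfr1507, where Azgp1 was at 0. Markers of olfactory transduction (23 genes), which define the mature neuron, took the opposite order, at 3.82% to 6.10%, 6.95% to 7.12% and 10.1% to 10.2%. Omp, the marker protein of mature olfactory neurons, was abundant in all 9 libraries. In sorted bulk samples fewer cells that express a gene and less of its RNA per cell cannot be told apart.

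Summed over the 10 genes, the Olfr73 libraries held 1016, 1466 and 1281 TPM (a level corrected for transcript length), the Olfr160 libraries 890, 923 and 963, and the Olfr1507 libraries 24.9, 34.8 and 31.1. In each of the 10 genes every Olfr1507 library lay below every library of the other groups, both in TPM and in CPM (counts scaled to the normalised library size, used below to follow a gene across groups). The genes were chosen for low values there, and the share of all genes with such full separation was not computed. The size of the gap differed between the genes. The Olfr1507 mean was 0.559% of the Olfr73 mean in CPM for Rasgrp4 and 26.6% for Slc23a2, and the same share of the Olfr160 mean ran from 1.14% for Papss2 to 12.7% for Tmem87a.

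**Figure D1:**
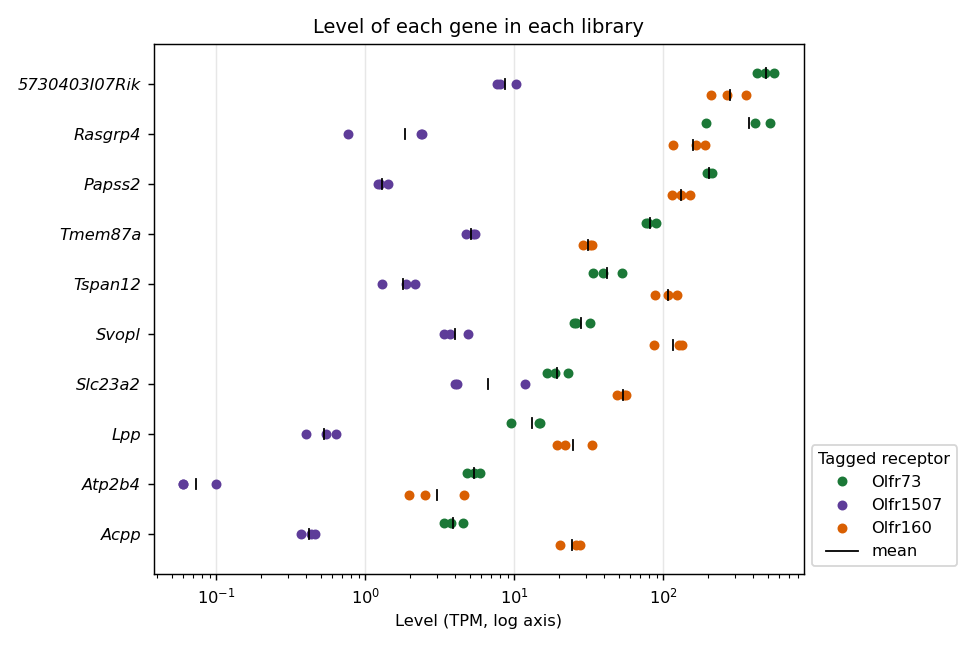
Level in TPM (log axis) of the 10 genes in each of the 9 libraries. Points are libraries coloured by tagged receptor and black ticks are group means, with Olfr1507 leftmost in every row and Slc23a2 closest to the other groups (11.7 TPM in Olfr1507 library 2 against 16.6 TPM in the lowest Olfr73 library).

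The shares fell into 3 ranges. In Papss2, Rasgrp4, Atp2b4, 5730403I07Rik, Lpp and Tspan12 the Olfr1507 mean was under 5% of both other means in CPM. Acpp and Svopl kept 12.4% and 13.5% of their Olfr73 level but 2.04% and 3.44% of their Olfr160 level, and Tmem87a kept 12.7% of its Olfr160 level and 4.56% of its Olfr73 level. Slc23a2 kept 26.6% and 10.7%, and with 1141 counts over the Olfr1507 libraries it was reduced there and not near absent. For comparison, Nqo1 kept 0.516% of its Olfr73 level and 0.573% of its Olfr160 level, and Acsm4 0.400% and 1.43%.

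**Figure D2:**
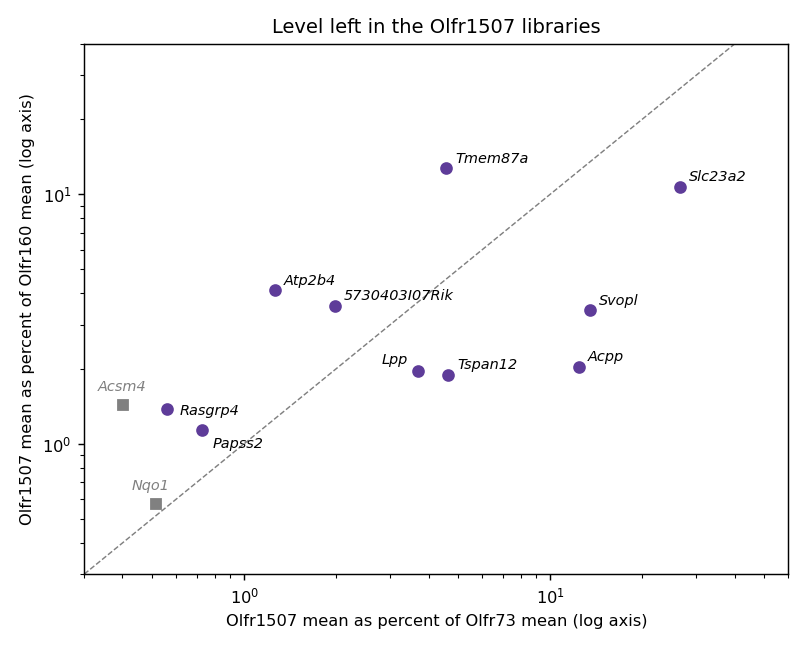
Mean CPM in the Olfr1507 libraries as a percent of the Olfr73 mean (x) and of the Olfr160 mean (y), both on log axes, for the 10 genes (circles) and 2 dorsal marker genes (squares). The dashed line marks equal shares; Slc23a2 lies farthest from the corner at 26.6% and 10.7%, and Rasgrp4 and Papss2 lie next to Nqo1 and Acsm4.

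This pattern was not limited to the 10 genes. Means at least 10-fold lower in Olfr1507 than in both other groups, with at least 5 CPM in both of those, were found in 415 of the 16399 genes, 322 of them no odorant receptors, and 6 of the 10 genes were among them. The 415 genes were 2.53% of those tested. At 3-fold the count was 789 genes (4.81%) and included all 10. Ranked by the smaller of the 2 folds among 9170 genes other than odorant receptors, Papss2 came 12th and Rasgrp4 16th, 5730403I07Rik 57th, Lpp 63rd, Atp2b4 80th and Tspan12 96th, while Acpp, Tmem87a, Svopl and Slc23a2 came at 391, 398, 412 and 581.

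Within the Olfr1507 libraries 5730403I07Rik had the highest level of the 10, at 8.62 ± 1.36 TPM (mean ± SD, n = 3 here and below), and Atp2b4 the lowest, at 0.0733 ± 0.0231 TPM. Slc23a2 (6.60 ± 4.43 TPM), Tmem87a (5.14 ± 0.381 TPM) and Svopl (3.97 ± 0.773 TPM) followed the noncoding gene and overlapped one another or their neighbours in this order within about 1 SD. Rasgrp4, Tspan12 and Papss2 lay together at 1.84 ± 0.933, 1.77 ± 0.437 and 1.30 ± 0.108 TPM. 5730403I07Rik, Rasgrp4 and Papss2 were the highest 3 in both other groups, at 485 ± 64.9, 375 ± 167 and 202 ± 7.73 TPM in Olfr73 and 278 ± 75.9, 157 ± 38.0 and 132 ± 18.3 TPM in Olfr160. Below them the order differed: Tmem87a (80.9 ± 6.72 TPM) led the rest in Olfr73, and Svopl (115 ± 25.7 TPM) and Tspan12 (107 ± 18.0 TPM) did so in Olfr160.

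The sequence before the transcription start was read for 9 of the genes from RefSeq promoters (GRCm38.p6; 250 bases upstream). CCCNNGGG, a core letter pattern of the sites bound by the Ebf factors of olfactory neurons, is its own reverse complement, so 1 search covers both strands. It was found before Papss2, Lpp and Slc23a2, 3 of the 9, against 13.4% of the 27025 genes with a promoter in the table. Among the 9 genes only these 3 have 2 promoters in the table, and 1 of the 2 holds the match in each. Counted by promoter, 11.8% of 32851 held it. These 3 sequences are shown because they hold the only matches among the genes, in capitals; a match is a description of letters and not a binding site. They lie at chr19:32595465-32595714 (plus strand), chr16:24393100-24393349 (plus) and chr2:132145109-132145358 (minus), and the first capital stands 64, 21 and 104 bases before the start.
Papss2: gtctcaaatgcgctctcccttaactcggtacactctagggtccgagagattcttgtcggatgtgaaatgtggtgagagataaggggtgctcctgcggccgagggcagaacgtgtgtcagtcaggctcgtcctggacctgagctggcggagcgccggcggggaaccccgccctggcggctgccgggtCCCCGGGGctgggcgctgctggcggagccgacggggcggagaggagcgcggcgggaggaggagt
Lpp: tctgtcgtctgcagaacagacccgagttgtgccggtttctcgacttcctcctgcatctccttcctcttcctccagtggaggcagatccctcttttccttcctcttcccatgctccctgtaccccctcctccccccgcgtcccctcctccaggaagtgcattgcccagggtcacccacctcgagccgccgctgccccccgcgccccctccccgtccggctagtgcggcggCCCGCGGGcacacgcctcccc
Slc23a2: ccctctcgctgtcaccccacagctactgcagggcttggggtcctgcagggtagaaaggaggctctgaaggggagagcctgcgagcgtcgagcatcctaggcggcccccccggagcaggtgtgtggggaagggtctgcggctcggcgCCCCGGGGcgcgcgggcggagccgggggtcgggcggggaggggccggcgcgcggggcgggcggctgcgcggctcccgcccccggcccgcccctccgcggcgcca
The 3 windows were rich in G and C, at 67.6%, 67.6% and 78.8% against a median of 52.4% over all 32851 promoters of the table. TAATTA, a core of homeodomain sites that also reads the same on both strands, was in 0 of the 9 genes and in 5.65% of all genes. Neither says whether a factor acts at these genes.

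Compared between the groups in which they were high, the 10 genes fell into 2 sets of opposite direction. Acpp, Svopl, Slc23a2, Tspan12 and Lpp were higher in Olfr160, and Atp2b4, Tmem87a, 5730403I07Rik and Papss2 were higher in Olfr73, each with an adjusted p under 0.05 in edgeR's quasi-likelihood test (Benjamini-Hochberg over 16399 genes), while Rasgrp4 did not pass. That is 9 of 10, where 17.9% of all genes were called, 7.45% higher and 10.5% lower in Olfr73. With a filter of 5 CPM in 3 libraries, which all 10 passed, 2735 of 10850 genes were called. The median size of the log2 difference was 1.31 in the 10 genes and 0.50 over all genes tested, with signed medians of -0.14 and -0.01. Scaling by library size alone turned the split of all calls from 1222 higher and 1714 lower to 857 and 1942, and scaling to the transduction genes to 95 and 5041.

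**Figure D3:**
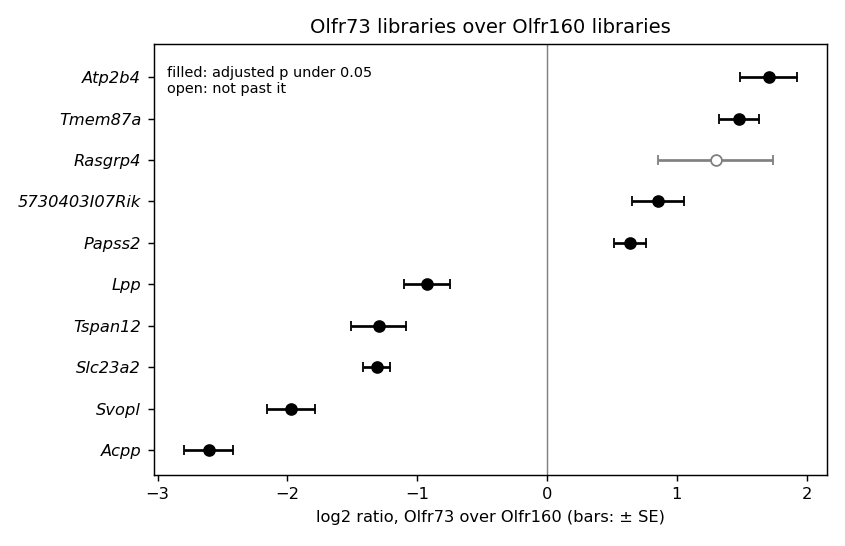
Log2 ratio of the Olfr73 to the Olfr160 libraries for each of the 10 genes, with bars of ± 1 SE from edgeR (3 libraries a group). Filled points passed an adjusted p of 0.05; 5 lie left of 0 down to -2.61 (Acpp), 4 lie right of 0 up to 1.71 (Atp2b4), and Rasgrp4 is open at 1.30.

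Papss2 (chr19:32595790-32667187, plus strand, GRCm38 as all positions here) makes PAPS, the sulfate donor of all sulfotransferases. Its level was 333, 356 and 375 CPM in the Olfr73 libraries, 228, 260 and 194 CPM in Olfr160, and 2.59, 2.31 and 2.85 CPM in Olfr1507. All 3 Olfr73 libraries lay above all Olfr160 libraries, and the log2 difference was 0.64 with an SE of 0.12 (edgeR adjusted p = 0.0101). It was -0.08 (adjusted p = 0.802) when libraries were scaled to the transduction genes in place of TMM. The Olfr1507 mean was 137-fold below Olfr73 and 88.0-fold below Olfr160 on the CPM scale.

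Its paralogue Papss1, which makes the same donor, was not low in Olfr1507: it held 151 CPM there against 86.7 in Olfr73 and 98.6 in Olfr160. Papss1 was higher in Olfr1507 by 0.80 over Olfr73 (edgeR adjusted p = 0.000531) and by 0.61 over Olfr160 (adjusted p = 0.00109) on the log2 scale. The second call was lost with library size alone (0.19, adjusted p = 0.167). Under scaling to the transduction genes the sign turned, to -0.04 (not called) and to -0.94 (called lower, edgeR adjusted p = 0.00249). The share of Papss2 in the TPM of both does not depend on the scaling of libraries. It was 76.0% ± 2.40 in Olfr73, 63.7% ± 2.08 in Olfr160 and 1.30% ± 0.166 in Olfr1507, so the donor synthase of Olfr1507 libraries was almost all Papss1 transcript.

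Of 39 tested genes of PAPS use and sulfation, 6 were higher and 9 lower in Olfr1507 than in Olfr73 (background 34.4% of all genes called in either direction, 14.5% higher and 19.9% lower), and 8 higher and 15 lower than in Olfr160 (background 48.4%, 20.7% and 27.7%). The list's median log2 difference was -0.46 over Olfr73 and -0.36 over Olfr160, where all genes had -0.15 and -0.14. The heparan sulfotransferases Hs3st1 and Hs6st1 were higher in Olfr1507 than in Olfr73 by 3.62 and 1.88 on the log2 scale (edgeR adjusted p = 0.000128 and 0.000134), and both kept this call under the other scalings. Hs3st5, another heparan sulfotransferase, was lower (adjusted p = 0.000242), at 0.0812 CPM against 7.68. Against Olfr160, Hs3st1 and Hs6st1 were called higher by 1.71 and 1.95, and neither call held under scaling to the transduction genes (0.20 and 0.45). With library size alone these counts became 5 and 11 against Olfr73, and 3 and 18 against Olfr160, and with scaling to the transduction genes 2 and 21, and 0 and 32.

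Acpp (chr9:104288251-104337748, minus strand) encodes prostatic acid phosphatase, whose membrane form splits AMP to adenosine outside cells. The Olfr160 libraries held 61.9, 67.4 and 48.4 CPM, the Olfr73 libraries 11.3, 9.04 and 8.81 CPM and the Olfr1507 libraries 1.03, 1.25 and 1.34 CPM, a staircase of 3 levels without overlap. Acpp showed the widest gap of the 10 between Olfr73 and Olfr160, at -2.61 on the log2 scale with an SE of 0.19 (edgeR adjusted p = 0.000519). The lysosomal acid phosphatase Acp2, a relative, went the other way in Olfr1507, with 999 CPM against 426 in Olfr73 (log2 1.23, adjusted p = 0.000557) and 388 in Olfr160 (log2 1.36, adjusted p = 0.000158). Under scaling to the transduction genes neither was called, at 0.38 and -0.14.

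Of 20 tested genes of extracellular nucleotides and adenosine, 2 were higher and 9 lower in Olfr1507 than in Olfr73, and 3 higher and 12 lower than in Olfr160, against the background shares of 14.5% and 19.9%, and of 20.7% and 27.7%. The list's median was -2.10 and -4.38 on the log2 scale, where all genes had -0.15 and -0.14. The counts were 2 and 11, and 3 and 13, with library size alone, and 1 and 14, and 2 and 15, with scaling to the transduction genes. The ATP-gated channel P2rx4 (147 CPM in Olfr1507, 40.3 in Olfr73, 31.1 in Olfr160) and the ATP-splitting Entpd2 (116, 37.4 and 24.7 CPM) were higher in Olfr1507 than in both, with log2 differences of 1.87 and 2.24 for P2rx4 and 1.63 and 2.23 for Entpd2 (edgeR adjusted p of 0.00286 or lower). Under scaling to the transduction genes the call of Entpd2 against Olfr73 was lost (0.78, adjusted p = 0.0536). The nucleoside transporter Slc29a1 was lower than in both, at 0.275 CPM against 5.11 and 37.6 (log2 -3.99 and -6.87, adjusted p = 0.00170 and 6.71e-05).

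Svopl (chr6:37983739-38046996, minus strand), a relative of the synaptic vesicle protein SVOP in the major facilitator family of transporters, held 154, 158 and 100 CPM in Olfr160, 40.3, 32.5 and 32.0 CPM in Olfr73 and 4.43, 4.59 and 5.14 CPM in Olfr1507. The Olfr160 libraries lay above all others, with a log2 difference between Olfr73 and Olfr160 of -1.97 (SE 0.19, edgeR adjusted p = 0.00152). Svop was the mirror image, at 29.9 CPM in Olfr1507 and 4.71 and 6.51 CPM in Olfr73 and Olfr160. It was higher in Olfr1507 by 2.66 (adjusted p = 0.000639) and 2.20 (adjusted p = 0.000828) on the log2 scale, and by 1.83 (called) and 0.60 (not called, adjusted p = 0.222) under scaling to the transduction genes. Svopl made up 89.7% ± 5.13 of the TPM of both in Olfr73, 96.0% ± 0.426 in Olfr160 and 18.5% ± 3.38 in Olfr1507. Sv2a, a further vesicle protein of this family, was higher in Olfr1507 than in Olfr160 (111 against 40.1 CPM, log2 1.47, adjusted p = 0.00538) and did not pass against Olfr73 (74.9 CPM, log2 0.57, adjusted p = 0.188); under scaling to the transduction genes these were 0.03 and -0.27, neither called.

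Slc23a2 (chr2:132052496-132145108, minus strand), a sodium-coupled carrier that takes up vitamin C, held 175, 156 and 145 CPM in Olfr160, 64.3, 67.1 and 60.2 CPM in Olfr73 and 16.1, 17.7 and 17.0 CPM in Olfr1507. Libraries of a group differed little and the groups did not overlap, with a log2 difference between Olfr73 and Olfr160 of -1.31 (SE 0.11, edgeR adjusted p = 0.000876). The other vitamin C carrier Slc23a1 was lower in Olfr1507 as well, at 0.205 CPM against 2.65 in Olfr73 (log2 -3.57, adjusted p = 0.00311) and 7.56 in Olfr160 (log2 -5.08, adjusted p = 0.000347). Slc23a3, the family member without known vitamin C transport, was higher, at 15.9 CPM against 5.68 (log2 1.48, adjusted p = 0.0127) and 5.42 (log2 1.55, adjusted p = 0.00695). Under scaling to the transduction genes both calls of Slc23a3 were lost, at 0.63 and 0.08. Slc23a2 made up 72.4% ± 4.64, 82.6% ± 1.04 and 29.6% ± 13.1 of the family's TPM in Olfr73, Olfr160 and Olfr1507.

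**Figure D4:**
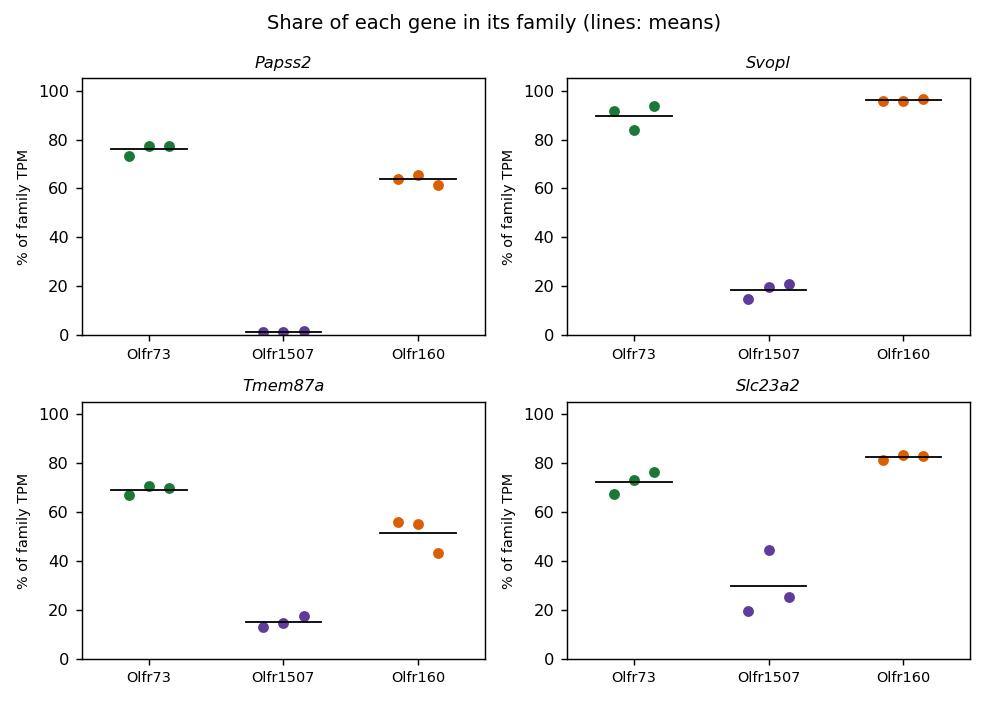
Share of Papss2 (with Papss1), Svopl (with Svop), Tmem87a (with Tmem87b) and Slc23a2 (with Slc23a1 and Slc23a3) in the summed TPM of the genes named, in percent, for each library (points, in replicate order) and as group means (lines). The Olfr1507 libraries lie lowest in all 4 panels, near 0 for Papss2 (1.30%) and at 15.1% to 29.6% on average for the others.

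Tspan12 (chr6:21771395-21852515, minus strand), a tetraspanin that strengthens Norrin signalling through Frizzled-4, held 132, 152 and 107 CPM in Olfr160, 66.0, 42.4 and 50.8 CPM in Olfr73 and 1.78, 2.94 and 2.68 CPM in Olfr1507. The 3 groups were apart, and Olfr73 was lower than Olfr160 by a log2 difference of -1.30 (SE 0.21, edgeR adjusted p = 0.00558). The ligand Norrin (Ndp) did not share the near absence: it held 102 CPM in Olfr73, 65.6 in Olfr1507 and 59.8 in Olfr160, lower in Olfr1507 than in Olfr73 (log2 -0.64, adjusted p = 0.0118) and not past the threshold against Olfr160 (log2 0.13, adjusted p = 0.494, and -0.28 with library size alone). Under scaling to the transduction genes Ndp was called lower in Olfr1507 than in both, at -1.48 and -1.36. The receptor Fzd4 was scarce everywhere, at 0.763 CPM in Olfr73, 2.18 CPM in Olfr160 and 0 counts in all Olfr1507 libraries. Of the 11 tested genes of this pathway 2 were higher and 4 lower in Olfr1507 than in Olfr73, and 1 higher and 4 lower than in Olfr160 (background as above, 14.5% and 19.9%, and 20.7% and 27.7%). With library size alone these counts were 1 and 4, and 0 and 4, and with scaling to the transduction genes 0 and 7, and 0 and 10. The transcription factor Tcf7l2 was lower in Olfr1507 than in both (log2 -3.42 and -5.32, adjusted p = 0.00293 and 0.000210).

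Lpp (chr16:24393507-24992578, plus strand) encodes a LIM domain protein of focal adhesions. It held 79.4, 69.7 and 56.4 CPM in Olfr160, 30.0, 38.5 and 39.7 CPM in Olfr73 and 1.35, 1.09 and 1.56 CPM in Olfr1507. The gap between Olfr73 and Olfr160 was the narrowest of the 5 genes higher in Olfr160, at -0.93 on the log2 scale (SE 0.18, edgeR adjusted p = 0.0101). Zyx, the founding member of its family, was scarce in all groups, at 0.675, 2.29 and 0.164 CPM in Olfr73, Olfr160 and Olfr1507, and lower in Olfr1507 than in Olfr160 (log2 -3.75, adjusted p = 0.00527).

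The 5 genes higher in Olfr160 moved in the same direction as markers of other cells. Of the 22 sustentacular and gland markers 18 were lower in Olfr73 than in Olfr160 and 0 higher, with 4 not called and a median log2 difference of -2.28. Their sum was 41855, 60606 and 29387 CPM in the Olfr160 libraries, 9095, 6972 and 4730 CPM in Olfr73 and 935, 683 and 491 CPM in Olfr1507. Within Olfr160, where that sum in libraries 1 and 2 was 1.42 and 2.06 times that in library 3, the 5 genes were 1.07 to 1.58 times as high as in library 3. Atp2b4, Rasgrp4 and 5730403I07Rik were 0.587 to 0.838 times as high, as was the sum of the transduction genes at 0.563 and 0.759, and Papss2 and Tmem87a were 1.08 to 1.34 times as high. With Olfr160 library 3 alone in its group, the one with the fewest such markers, all 5 genes stayed lower in Olfr73. The log2 differences were -2.32 for Acpp, -1.52 for Svopl, -1.19 for Slc23a2, -1.02 for Tspan12 and -0.65 for Lpp. All 5 were smaller in size than with all 9 libraries, at -2.61, -1.97, -1.31, -1.30 and -0.93 in the same order. That library also had the largest share of its tagged receptor, 10.1%. The 4 genes higher in Olfr73 stayed higher with it alone, at 0.86 for Papss2, 1.46 for Atp2b4, 1.59 for Tmem87a and 0.50 for 5730403I07Rik. With all 9 libraries these were 0.64, 1.71, 1.48 and 0.86. Papss2 and Tmem87a were thus larger with library 3 alone, and Atp2b4 and 5730403I07Rik smaller. A single library has no spread of its own, so only the sizes are given here. The part of other cells in these levels was not tested.

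Atp2b4 (chr1:133699457-133801041, minus strand), a plasma membrane pump that moves calcium out of the cell, held 31.3, 26.9 and 26.6 CPM in Olfr73, 8.57, 7.16 and 10.2 CPM in Olfr160 and 0.270, 0.462 and 0.335 CPM in Olfr1507, where it rested on 5, 14 and 6 counts. The log2 difference between Olfr73 and Olfr160 was 1.71 (SE 0.22, edgeR adjusted p = 0.00276), the largest toward Olfr73 among the 10 in this fit but not in TPM. In TPM the libraries lay closer, at 5.90, 5.38 and 4.77 in Olfr73 and 4.62, 2.52 and 1.97 in Olfr160, a ratio of means of 1.76 against 3.27 in CPM, and limma on log2(TPM + 1) did not call it (adjusted p = 0.0871). The pump Atp2b1, at 191, 127 and 104 CPM in Olfr73, Olfr1507 and Olfr160, was not called in Olfr1507 against either group (adjusted p = 0.0670 and 0.296), and Atp2b2 and Atp2b3 did not pass the low-count filter. Atp2b4 was a minor member, at 4.90% ± 1.71 of the family's TPM in Olfr73 and 0.110% ± 0.0318 in Olfr1507.

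Of 10 tested genes of calcium extrusion and storage, 1 was higher and 3 lower in Olfr1507 than in Olfr73, and 4 higher and 2 lower than in Olfr160, beside the same background shares. Against Olfr160, library size alone gave 2 higher and 3 lower, and the transduction genes gave 1 and 9, which turns the balance. Against Olfr73 these were 1 and 4, and 0 and 7. The sodium-calcium exchanger Slc8a1 was lower in both, at 8.02 CPM against 134 in Olfr73 and 55.1 in Olfr160 (log2 -4.07 and -2.79, edgeR adjusted p = 4.30e-05 and 0.000102). It shared with Atp2b4 the higher level in Olfr73 than in Olfr160 (log2 1.28, adjusted p = 0.0142). The secretory pathway pump Atp2c2 was higher in Olfr1507 than in both (197 CPM against 85.8 and 43.0, log2 1.20 and 2.20, adjusted p = 0.000485 and 1.59e-05), and under scaling to the transduction genes the call against Olfr73 was lost (0.36, adjusted p = 0.0754).

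Tmem87a (chr2:120355312-120404113, minus strand), a membrane protein of the Golgi apparatus, held 112, 136 and 121 CPM in Olfr73, 43.8, 47.9 and 40.7 CPM in Olfr160 and 6.85, 4.52 and 5.47 CPM in Olfr1507. The groups did not overlap, and the log2 difference between Olfr73 and Olfr160 was 1.48 (SE 0.15, edgeR adjusted p = 0.00180). Its paralogue Tmem87b was not called in any comparison, at 70.8, 50.7 and 61.9 CPM in Olfr73, Olfr160 and Olfr1507. The share of Tmem87a in the TPM of both was 69.1% ± 1.94, 51.5% ± 6.94 and 15.1% ± 2.36 in that order.

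The transcript length behind the counts of Tmem87a was described as well. Counts and TPM of a gene together imply a mean transcript length, which for genes with 1 annotated transcript came within 10% of that transcript in 99.7% to 100% of cases per library. The conversion was fitted on those same genes, limited to at least 200 counts and 1 TPM, so this is no independent check. The Olfr1507 counts of Tmem87a lie below that limit. For Tmem87a the implied length was 2850, 2877 and 2867 bases in Olfr73, 2689, 2808 and 2779 in Olfr160, and 2300, 1830 and 1942 in Olfr1507. The Olfr1507 libraries lay lowest, and the Olfr160 libraries lay below Olfr73 without overlap as well. These lengths come from the tables by which the genes were chosen, so they are a description without a test. Tmem87a shares 209 exonic bases with Ganc on the opposite strand, whose level was 37.6 CPM in Olfr1507 and whose own difference was not called in any comparison; whether strand was used in counting is not given in the sources used here, and the part of Ganc reads in the Tmem87a values was not tested.

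For Svopl the implied length was 2371, 2226 and 1965 bases in Olfr1507, 2393 to 2421 in Olfr160 and 2447 to 2489 in Olfr73, again 3 ranges without overlap. Lpp was shorter in Olfr1507 (3554 to 4474 bases) than in Olfr73 (4561 to 5475) and overlapped Olfr160. Acpp implied 4445 to 4517 bases in Olfr1507 and 4331 to 4410 in Olfr160, and its Olfr1507 range overlapped Olfr73. In Olfr1507 it rested on 19, 38 and 24 counts and on TPM given to 2 decimals, 0.37 to 0.46. Rounding of the TPM alone could close that gap to Olfr160. In Slc23a2 a single library stood out: Olfr1507 library 2 implied 2590 bases and the other 8 libraries 4770 to 6275, and its TPM was 11.7 against 3.97 and 4.12 in its group, with 17.7 CPM against 16.1 and 17.0. The implied length of Atp2b4 varied within Olfr160, at 3454, 5013 and 8833 bases, against 8270 to 9019 in Olfr73 and 6854 to 8148 in Olfr1507, beside the smaller ratio in TPM given above. Papss2 stayed between 3114 and 3456 bases in all 9 libraries and 5730403I07Rik, with 1 annotated transcript of 2033 bases, between 2031 and 2033. Even so, the Olfr73 and Olfr160 lengths of 5730403I07Rik did not overlap, by a fraction of a base. Ranges without overlap can thus arise without a change of transcript, and their share over all genes was not computed. Lengths rest on the authors' assignment of reads to transcripts, which at the counts of Olfr1507 (98 to 137 for Tmem87a and 82 to 139 for Svopl) is imprecise. Rounded TPM make the Olfr1507 lengths of Atp2b4, at 0.06 to 0.1 TPM, coarser still.

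**Figure D5:**
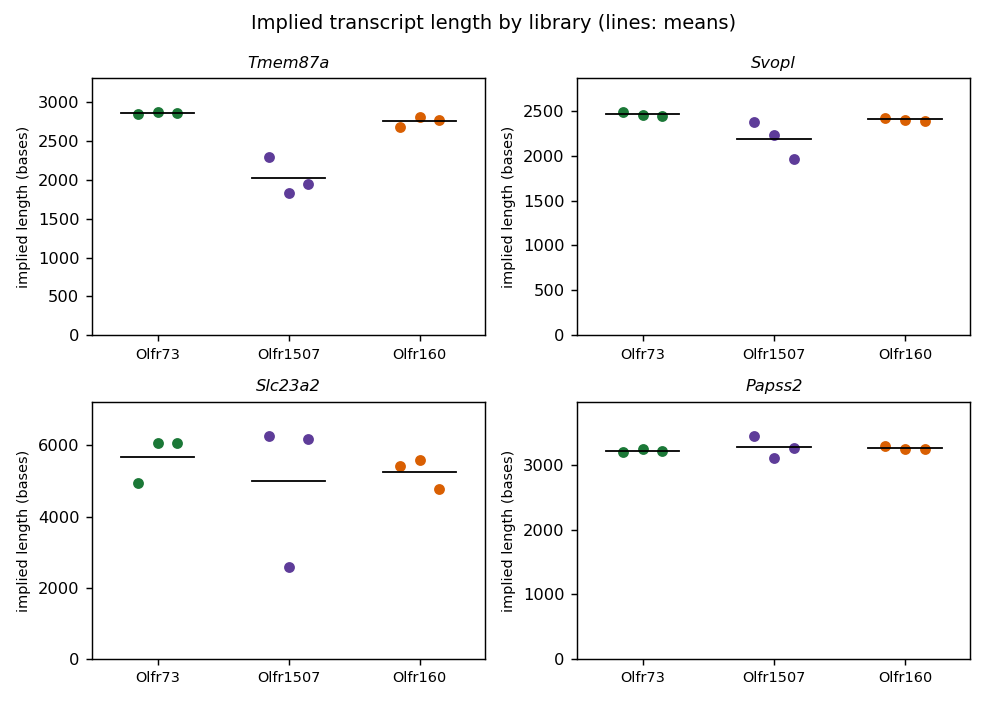
Mean transcript length in bases implied by counts and TPM together, for each library (points, in replicate order) and as group means (lines), in Tmem87a, Svopl, Slc23a2 and Papss2. In Tmem87a the Olfr1507 libraries lie at 1830 to 2300 bases, below 2689 to 2877 in the others, whereas Papss2 stays between 3114 and 3456 in all groups.

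Rasgrp4 (chr7:29134851-29153961, plus strand) encodes an exchange factor that activates Ras in response to diacylglycerol and is best known from mast cells. It held 316, 949 and 715 CPM in Olfr73, 266, 199 and 340 CPM in Olfr160 and 1.40, 5.26 and 4.41 CPM in Olfr1507. The Olfr73 and Olfr160 libraries overlapped through Olfr73 library 1, and the log2 difference of 1.30 (SE 0.44) did not pass (edgeR adjusted p = 0.0721). Without that library it was 1.63 (adjusted p = 0.0284), and without Olfr1507 library 1, which enters only through the shared spread, 1.30 (adjusted p = 0.0488). The spread in Olfr73 was the widest of the 10 genes, with an SD of 320 CPM on a mean of 660. The related exchange factors were far below it: Rasgrp1, Rasgrp2 and Rasgrp3 together held 0.887 ± 0.255 TPM in Olfr73, 4.53 ± 1.60 TPM in Olfr160 and 0.113 ± 0.0850 TPM in Olfr1507. Rasgrp1 was lower in Olfr1507, with 0.0510 CPM, than in Olfr73 (0.866 CPM, adjusted p = 0.0137) and Olfr160 (7.79 CPM, adjusted p = 0.000538), and Rasgrp3 was not called. Rasgrp4 shares 978 exonic bases with Fam98c on the other strand, which held 0.971 to 1.99 CPM in the group means.

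5730403I07Rik (chr9:77366412-77399418, minus strand), an intergenic noncoding RNA whose function is not established, was the highest of the 10 in TPM in every group. It held 407, 548 and 480 CPM in Olfr73, 200, 255 and 338 CPM in Olfr160 and 8.20, 8.85 and 11.3 CPM in Olfr1507. The Olfr73 libraries lay above the Olfr160 libraries, with a log2 difference of 0.86 (SE 0.20, edgeR adjusted p = 0.0207). This call did not hold without Olfr73 library 2 (0.72, adjusted p = 0.0586), Olfr160 library 1 (0.69, adjusted p = 0.0528) or Olfr160 library 2 (0.83, adjusted p = 0.0828), nor under scaling to the transduction genes (0.22, adjusted p = 0.267).

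Among 40 tested relatives of the 10 genes (families of Papss, Acp, zyxin, SVOP and SV2, tetraspanins, plasma membrane calcium pumps, Tmem87, Slc23 and Rasgrp), 6 were higher and 13 lower in Olfr1507 than in Olfr73, and 10 higher and 18 lower than in Olfr160. The background was 14.5% higher and 19.9% lower, and 20.7% and 27.7%. The median log2 difference of the relatives was -0.37 and -0.92, where all genes had -0.15 and -0.14. Papss1, Acp2, Svop and Slc23a3 were called higher in Olfr1507 than in both, and Slc23a1, Rasgrp1 and Tspan8 lower than in both. Under scaling to the transduction genes the counts were 1 and 24, and 0 and 36. Of the 4 named as higher, Svop against Olfr73 alone was still called higher, and Papss1 was called lower than in Olfr160. The 3 named as lower kept both calls.

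The profile of the 10 genes over the 9 libraries, taken as the median of their centred log2 CPM, was followed most closely by Cflar (Pearson's r = 0.994), Itpr1 (0.993), Ano6 (0.993), Sema3a (0.992) and Nqo1 (0.988) among 9160 genes, odorant receptors left out, with means of at least 5 CPM in Olfr73 and Olfr160; the 9 libraries form 3 groups, so these values mainly reflect the group levels and carry no test. Cflar, an inhibitor of caspase-8, held 71.8 ± 21.7 CPM in Olfr73, 58.0 ± 5.78 in Olfr160 and 1.46 ± 0.320 in Olfr1507. The calcium release channel Itpr1 held 61.1 ± 9.46, 49.7 ± 9.07 and 2.15 ± 0.657 CPM in that order, and the guidance molecule Sema3a 23.9 ± 2.57, 28.1 ± 6.87 and 2.66 ± 0.183 CPM. Of the 10 genes themselves Papss2 lay closest to the common profile (r = 0.993) and Acpp farthest (r = 0.890).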

How the data were processed

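The 10 genes, the gene lists and the tests were chosen with earlier results of these data known. Per the submitters' processing notes, reads were processed with STAR 2.6.1 and RSEM 1.3.1 on mm10, and DESeq2 is listed without a version; the annotation release and the use of strand are not given in the sources used here. For each gene the authors deposited RSEM expected counts (4.06% to 5.54% of a library's values not whole) and, in a second table, TPM. Columns carry older receptor names (M72, MOR174 and MOR28), matched to Olfr160, Olfr73 and Olfr1507 through RefSeq synonyms. Positions come from GENCODE M21, which holds 98.7% of the tables' transcript identifiers.

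Expected counts were rounded and fitted with edgeR 4.0.16 (R 4.3.3; filterByExpr, TMM, robust quasi-likelihood, 1 mean per group over all 9 libraries, Benjamini-Hochberg 0.05). CPM are edgeR values for the TMM-scaled library, and an SE is the log2 difference over the square root of F. The contrasts share libraries, so Olfr73 and Olfr160 values against Olfr1507 are not independent. The median log2 difference over all genes was -0.01 for Olfr73 against Olfr160, and for Olfr1507 it was -0.15 against Olfr73 and -0.14 against Olfr160; under library size alone it was -0.12, -0.47 and -0.56, and under scaling to 23 transduction genes -0.71, -0.99 and -1.68. Besides the 10 genes the text names up to 4 genes of a list with the lowest adjusted p in a comparison, the direct paralogues, Nqo1 and Acsm4, the nearest tested neighbours (2 on each side) and the 5 closest profiles; of genes the rule allows, those printed, and Slc23a3 outside it, were picked after their values were seen. On simulated counts for Olfr73 over Olfr160 (15791 genes, 200 changed) the fit called 62% of genes changed 2-fold and 94% changed 4-fold, with 8 false calls among 164. Depth limits the lowest values: 3 counts are 0.0828 to 0.174 CPM of a library before TMM, which covers counting error only. The 23 alternatives changed the scaling, the low-count filter, the tool, the libraries in the fit, the threshold or the pseudocount, added the replicate number, or left out each library in turn. They used limma 3.58.1 and DESeq2 1.42.0; tables were handled with pandas 2.3.3, numpy 2.4.6 and scipy 1.17.1, and figures with matplotlib 3.10.9, in Python 3.11.15.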

Additional observations from a re-analysis of the deposited data

How the results depend on the processing

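In 23 alternatives, of 230 values of the 10 genes for Olfr73 over Olfr160, 16 kept their sign but were no longer past the threshold, 1 lost both, Papss2 under scaling to the transduction genes (-0.081, adjusted p = 0.802), and 4 were newly past it (all Rasgrp4). The described ratios of Olfr1507 to the other groups kept their sign in all 23. The number of genes called for Olfr73 over Olfr160 (2936) was 5136 under that scaling, 4468 with limma-voom, 61 with Olfr160 library 3 alone, 769 at an adjusted p of 0.01, and 976 (without Olfr160 replicate 2) to 3062 (without Olfr160 replicate 3) when libraries were left out in turn; it was 1408 without Olfr160 replicate 1 and 1878 without Olfr73 replicate 3. Of the 4 genes higher in Olfr73, 2 remained in number under transduction scaling, 0 with Olfr160 library 3 alone and 2 at 0.01, and of the 5 higher in Olfr160, 3 with library 3 alone. With library 3 alone edgeR takes its spread from the other groups. Relatives lower in Olfr1507 than in Olfr73 (13) were 24 under transduction scaling, 6 with limma-voom and 8 at 0.01, and those higher (6) were 1 under that scaling. Relatives lower than in Olfr160 (18) were 36 under that scaling, 11 with a filter of 5 CPM in 3 libraries and 10 with library 3 alone, and those higher (10) were 6 with library size alone and 0 under transduction scaling. The cause of these changes was not tested. Same-numbered libraries did not deviate together (correlations of -0.193 to 0.130), so the numbers were not taken as pairs. With the replicate block, the replicate number as a term, 2485 genes were called, 4 and 5 of the 10 as in the fit without it, and 11 lower and 5 higher relatives against Olfr73 and 16 and 10 against Olfr160. With 5 to 14 counts per library, Atp2b4 in Olfr1507 is limited by depth.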

Other observations

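The 2 nearest tested genes on each side of the 10 genes gave 40 neighbours. In Olfr1507 4 were higher and 14 lower than in Olfr73 (background 14.5% and 19.9% of all genes), 6 higher and 17 lower than in Olfr160 (20.7% and 27.7%), and 12 (background 15.5% of all genes) were lower than in both. The latter lay beside Lpp (Bcl6, Tprg, Trp63), Svopl (Atp6v0a4, Tmem213), Tspan12 (Cped1), Atp2b4 (Lax1, Gm38394, Fmod), Slc23a2 (Rassf2) and 5730403I07Rik (Mlip, Lrrc1), and none lay beside Papss2, Acpp, Tmem87a or Rasgrp4.

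Some neighbours followed the gene beside them in both contrasts. Atp6v0a4, a proton pump subunit 1487 bases from Svopl, held 97.4 CPM in Olfr160, 24.0 in Olfr73 and 1.26 in Olfr1507, and its difference between Olfr73 and Olfr160 (log2 -2.02, edgeR adjusted p = 0.00270) was close in size to that of Svopl (-1.97). Mlip, 13443 bases from 5730403I07Rik, held 34.6 CPM in Olfr73, 9.61 in Olfr160 and 0.638 in Olfr1507, and was higher in Olfr73 than in Olfr160 (log2 1.85, adjusted p = 0.0329), as was the noncoding gene; the call of Mlip was lost under scaling to the transduction genes (1.21, adjusted p = 0.0818). Rassf2, 22238 bases from Slc23a2, held 92.9, 18.9 and 2.53 CPM in Olfr160, Olfr73 and Olfr1507 (Olfr73 over Olfr160 log2 -2.30, adjusted p = 0.0125).

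Other neighbours did not. Atad1, 4451 bases from Papss2, held 251, 249 and 311 CPM in Olfr73, Olfr160 and Olfr1507, while Papss2 differed 137-fold between Olfr73 and Olfr1507. Atad1 was called higher in Olfr1507 than in Olfr73 and Olfr160 (log2 0.31 and 0.32), but lower under scaling to the transduction genes (-0.53 and -1.20). Vps39, 2175 bases from Tmem87a, was higher in Olfr1507 than in Olfr73 and Olfr160 (log2 0.78 and 1.00, edgeR adjusted p = 0.00275 and 0.000406). Its sign turned under scaling to the transduction genes, to -0.06 (not called) and -0.51 (called lower). Psmd8, 20227 bases from Rasgrp4, held 77.3, 78.0 and 79.6 CPM in Olfr73, Olfr160 and Olfr1507. It was called lower in Olfr1507 than in Olfr73 and Olfr160 with library size alone (log2 -0.27 and -0.39). The same held under scaling to the transduction genes (-0.80 and -1.50).

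The tagged receptors lay far from the 10 genes: the nearest on a shared chromosome were Olfr73, 32.3 megabases from Tmem87a and 44.0 from Slc23a2, and Olfr160, 39.7 megabases from 5730403I07Rik and 66.6 from Acpp. None of the 10 is on the chromosome of Olfr1507.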
